A study of Homo sapiens with 4 samples.

Results

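GDF15 and 33 genes of the ATF4 amino acid response, 34 of the 63677 genes in the deposited table, were followed in MDA-MB-231 cells depleted of AXL. The members were taken by gene symbol, and each symbol had a single row. MDA-MB-231 is an established human triple-negative breast cancer line with high AXL, a receptor tyrosine kinase. The siCt group (2 libraries) received a control siRNA and the siAxl group (2 libraries) a pool of siRNAs against AXL, both delivered by lipofection, and total RNA was sequenced. A pool of siRNAs against AXL with no rescue does not separate the loss of AXL from other effects of those siRNAs. Nothing in the labels says that the libraries of a group came from separate cultures, so p-values measure only the spread between these libraries. The values are normalized counts, that is, reads per gene divided by a size factor of the library, and the question asked of them was whether the fall of GDF15 was shared by the other members.

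Reads assigned to genes numbered 39574387 to 44585773 a library, siCt 2 having the fewest. AXL stood at 29189 and 30617 normalized counts in siCt and at 8658 and 7141 in siAxl, which left 26.4% of the siCt mean. Mitochondrial genes took 3.70% and 3.78% of the reads in the libraries numbered 1, and 2.11% and 2.28% in those numbered 2. The line's markers were present in all libraries, with VIM at 86751 to 99296, CD44 at 33968 to 36518 and ZEB1 at 3075 to 3697. EGFR was also present and was higher in siAxl (7355 and 7136 in siCt, 12921 and 15003 in siAxl, limma adjusted p = 0.0017). The hormone receptor genes ESR1 and PGR stayed at or under 3.25 normalized counts, while CDH1 was lower in siAxl (90.1 and 94.3 in siCt, 36.9 and 22.6 in siAxl, limma adjusted p = 0.0085), and GATA3 ranged from 248 to 303 and EPCAM from 565 to 771. ERBB2 was higher in siAxl (3089 and 2949 in siCt, 3680 and 3536 in siAxl, limma adjusted p = 0.026). Of the markers of other cell types, PECAM1 was at 0 in all libraries, CD3E reached 0.959, ALB 10.7 and the leukocyte gene PTPRC 16.7.

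ATF4 is the transcription factor at the end of the integrated stress response. The kinases GCN2 (EIF2AK4, amino acid shortage), PERK (EIF2AK3, unfolded protein in the endoplasmic reticulum), PKR (EIF2AK2, double-stranded RNA) and HRI (EIF2AK1, haem shortage and mitochondrial stress) phosphorylate the translation factor eIF2, which lowers protein synthesis in general and raises the translation of the ATF4 message. ATF4 then pairs with C/EBP factors and switches on genes for amino acid synthesis, amino acid import and the charging of tRNAs, together with feedback and death genes. GDF15, a secreted cytokine of the TGF-beta superfamily that acts on the receptor GFRAL in the hindbrain, is known as a target of ATF4 and its partner DDIT3, and also of other stress factors. Because ATF4 is set mainly by translation and protein stability, its mRNA level need not follow its activity.

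Paired ATF4 and C/EBP sites are described by the letters TGATGNAA, where N is any base, or TTNCATCA on the other strand. A promoter window from 250 bases before to 50 bases after the annotated start was available from RefSeq (GRCh38.p14) for 29 of the 34 members. No window was matched for NUPR1, PSPH, PYCR1, LARS or YARS. The letters occurred in 10 of these 29, against 3.62% of 35116 promoters of that length. The strict form TGATGCAA (TTGCATCA on the other strand), a subset of the first, occurred in 8 of the 29, against 0.866% of all promoters. The members were listed as genes of the ATF4 response, so these shares are not independent of that choice. The windows that hold the letters are shown, 5′ to 3′ on the strand of the gene. Capitals mark the matched letters.
FGF21 (chr19:48755460-48755487, plus strand): aacaccaggaTTGCATCAgggaggagga
ATF3 (chr1:212565206-212565233, plus strand): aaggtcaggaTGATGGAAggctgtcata
CHAC1 (chr15:40953252-40953279, plus strand): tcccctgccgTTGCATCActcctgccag
ASNS (chr7:97872459-97872486, minus strand): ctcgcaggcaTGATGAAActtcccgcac
AARS (chr16:70289676-70289703, minus strand): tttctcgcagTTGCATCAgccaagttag
CARS (chr11:3057408-3057435, minus strand): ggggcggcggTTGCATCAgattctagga
IARS (chr9:92293693-92293720, minus strand): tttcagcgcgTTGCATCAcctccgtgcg
MARS (chr12:57488054-57488081, plus strand): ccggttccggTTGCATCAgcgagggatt
NARS (chr18:57621805-57621832, minus strand): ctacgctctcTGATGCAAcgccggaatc
TARS (chr5:33440957-33440984, plus strand): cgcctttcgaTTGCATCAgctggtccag
Among the synthetases the match lay near the start of transcription in CARS, IARS, MARS, NARS and TARS (at -2, -13, -4, 15 and 3, counted from 1 at the first transcribed base and from -1 before it), and at -187 in AARS. The letters were not in the window of GDF15, whose last 30 bases before the start are given for comparison, in lower case throughout.
GDF15 (chr19:18386128-18386157, plus strand): ctataaaggccggtccggcagcatctggtc
A match of letters is a description of the sequence. Of the 6 other cytosolic synthetases with a window, 0 held the letters, and of the 33 windows of other pathway genes 5 did.

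GDF15 was lower in both siAxl libraries. Replicates 1 and 2 of siCt had 2529 and 3373 normalized counts, and replicates 1 and 2 of siAxl had 514 and 682. The groups did not overlap, and the lower siCt library was still far above the higher siAxl library. The means were 2951 ± 597 in siCt and 598 ± 119 in siAxl (SD, n = 2 libraries each), so that 20.3% of the siCt level was left. The log2 fold change, siAxl minus siCt on the log2(normalized count + 1) scale used for all changes here, was -2.30 with a standard error of 0.17 and a 95% interval from -2.69 to -1.91 (limma adjusted p = 0.0013). This fall was known when the genes were chosen, so the test is given as a description. It rested on 2637 and 3113 reads in siCt and 529 and 694 in siAxl. No other gene with deposited values shares exonic bases with GDF15 in GENCODE 29. Annotated genes without deposited values were not examined for overlap. In RNA from whole cultures, fewer cells that express a gene and less of its RNA per cell cannot be told apart.

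**Figure D1:**
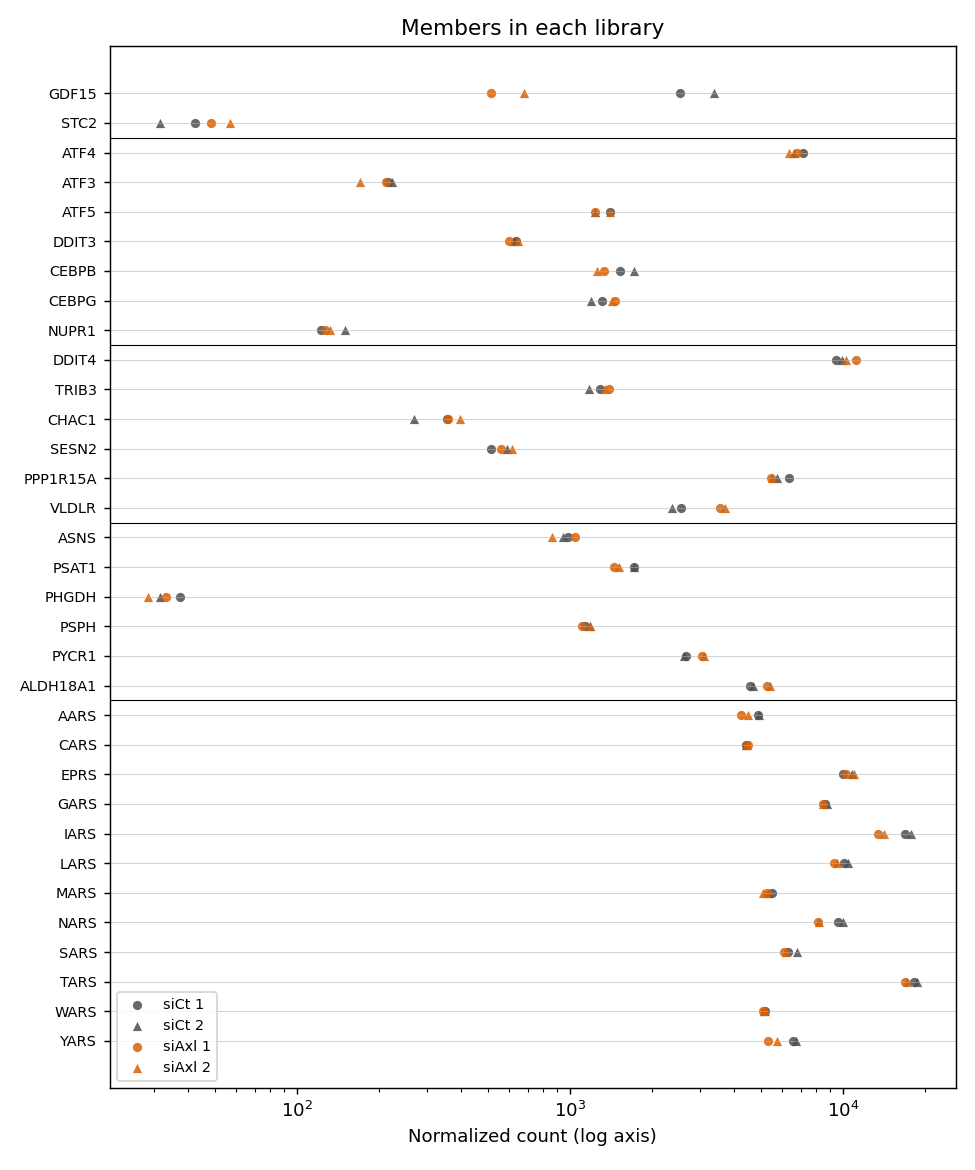
Normalized counts (log axis) of the 33 members with reads in siCt 1, siCt 2 (grey circle and triangle), siAxl 1 and siAxl 2 (orange circle and triangle), grouped by role. The siAxl and siCt points stand far apart for GDF15 (514 and 682 against 2529 and 3373), while for the others the siAxl mean lies between 79.8% and 147% of the siCt mean.

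The other members did not share a fall of this size. Of the 33, FGF21 had 0 reads in each library and 32 could be tested. 4 of the 32 were called lower (12.5%, adjusted p under 0.05 by limma), 3 were called higher (9.38%) and 25 passed in neither direction, while 7.91% of all 16064 genes tested were called lower and 10.8% higher (18.7% in either direction). Their mean in siAxl was between 79.8% (IARS) and 147% (VLDLR) of that in siCt. The lowest limit of any of the 32 intervals was -0.72, for PHGDH, and therefore above the upper limit of -1.91 for GDF15. Their median change was -0.029, against -0.0022 over all genes tested, with 21 below 0 and 11 above. Of members whose groups did not overlap, siAxl was the lower group in 13 (40.6%, against 30.5% of all genes) and the higher in 9 (28.1%, against 30.6%). The groups overlapped in the other 10. Over all genes the groups did not overlap in 61.2%. At an unadjusted p under 0.05, 7 were lower and 5 higher. At least the 18.7% of all genes that limma called also pass that threshold. Their full share was not computed, so such counts, here and for the lists below, have no comparison over all genes. edgeR called 4 lower and 3 higher (19.4% of all genes in either direction), and DESeq2 called 4 lower and 2 higher among the 30 it gave an adjusted p (8.57% of all genes lower, 11.5% higher and 20.1% in either direction). The smallest two-sided p of an exact permutation test on 2 against 2 libraries is 0.333, so that test cannot reach 0.05 for any member, and the limma test borrows its spread from all genes.

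The number of members called changed with the libraries that were used. Without siAxl 1 limma called 0 members lower and 1 higher, with 4 and 3 at an unadjusted p under 0.05 and with 413 and 888 of all genes called. Without siCt 2 it called 1 lower and 1 higher (935 and 1543 of all genes). Without siAxl 2 it called 2 lower and 1 higher (646 and 872 of all genes), and without siCt 1 it called 4 lower and 4 higher (1742 and 2158 of all genes). With every gene that had at least 1 read in the test it called 0 lower and 1 higher, with 8 and 4 at an unadjusted p under 0.05, and with 340 and 757 of 27108 genes called. GDF15 and VLDLR kept their calls in all 15 alternatives that were run, among them each of these.

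**Figure D2:**
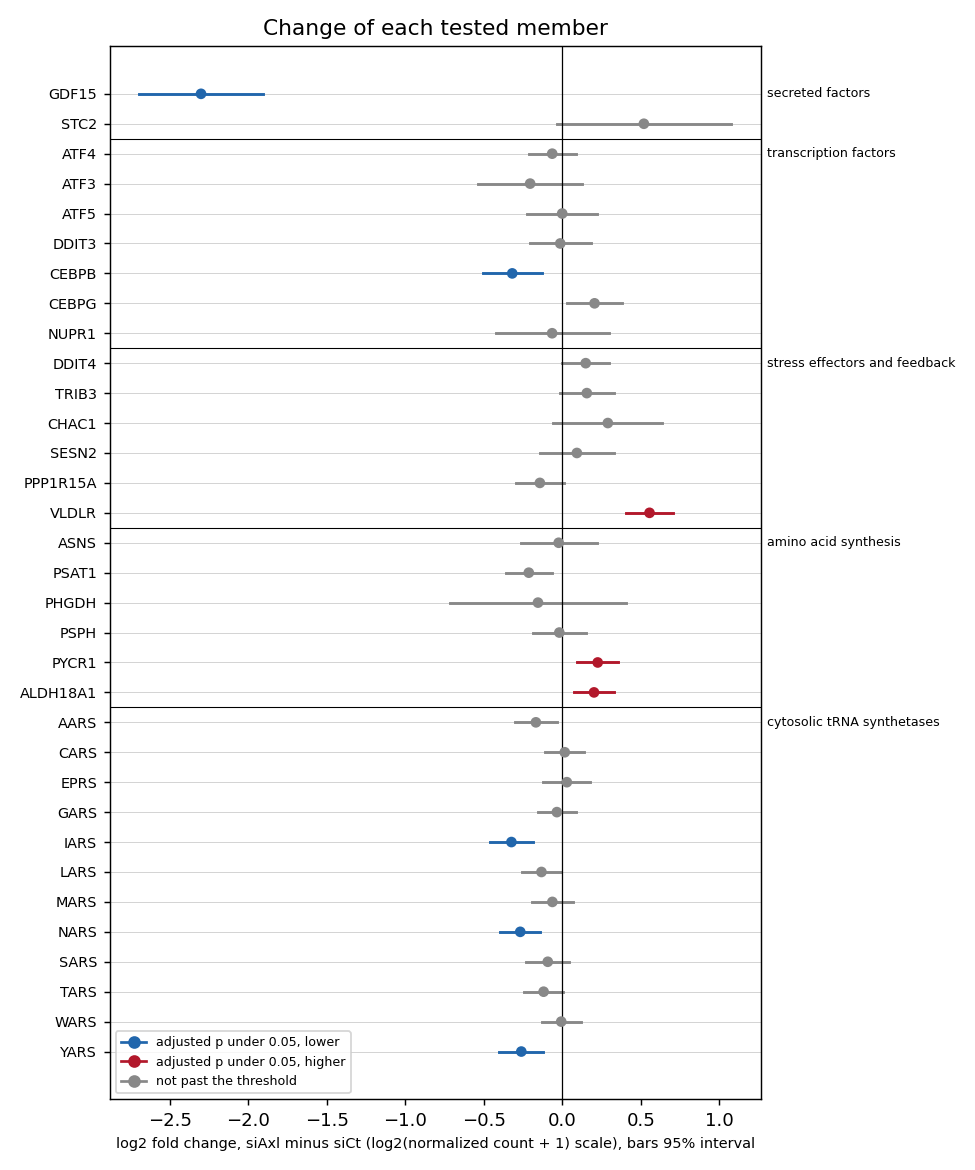
Log2 fold change, siAxl minus siCt, of the 33 tested members with 95% intervals from limma (blue, called lower; red, called higher; grey, not past an adjusted p of 0.05), grouped by role. The interval of GDF15, -2.69 to -1.91, does not meet that of any other member, and the changes of the others run from -0.32 (IARS) to 0.55 (VLDLR).

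Of the other secreted factors of the set only STC2 could be tested, and it was not called. STC2, a secreted glycoprotein that responds to stress of the endoplasmic reticulum, was measured at 42.2 and 31.4 normalized counts in siCt and at 48.6 and 57.0 in siAxl. Both siAxl libraries were thus above both siCt libraries, with a change of 0.52 and a wide interval, -0.036 to 1.07 (limma adjusted p = 0.17). FGF21, a hormone of the fasting liver, had 0 reads in all 4 libraries, which allows up to 3 reads a library, equal to 2.88 to 3.25 normalized counts. No fall could be seen in it at this depth.

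The message of ATF4 itself was abundant and was not called changed. It stood at 7117 and 6624 normalized counts in siCt and at 6782 and 6352 in siAxl, and the groups overlapped. The change was -0.065 with an interval from -0.21 to 0.084 (limma adjusted p = 0.52), so a fall of the size of that of GDF15 lies outside the interval. DDIT3, the death-promoting partner also called CHOP, stood at 634 and 623 in siCt and at 599 and 647 in siAxl, with an interval from -0.21 to 0.18. These values carry a limit of annotation, since exonic bases of DDIT3 overlap those of MARS and MBD6 on the opposite strand in GENCODE 29, and these neighbours had 848% and 261% of its reads. Whether the counting used strand is not given in the sources used here, and without strand such reads cannot be told apart. ATF5, a related factor, stood at 1404 and 1231 in siCt and at 1233 and 1398 in siAxl, with a change of -0.0013 that turned to 0.0079 under TMM scaling, so it had no direction. Its neighbour on the opposite strand, NUP62, had 346% of its reads and was itself lower by -0.21 (limma adjusted p = 0.046).

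CEBPB, a C/EBP factor that binds DNA together with ATF4, was the transcription factor called lower. It stood at 1528 and 1715 normalized counts in siCt and at 1337 and 1258 in siAxl, with no overlap. The mean in siAxl was 80.0% of that in siCt, a change of -0.32 with an interval from -0.51 to -0.13 (limma adjusted p = 0.034). CEBPG, a short partner of the same family, moved to the other side without passing the threshold. Its values were 1317 and 1195 in siCt and 1461 and 1431 in siAxl (change 0.20, limma adjusted p = 0.095), and without siCt 1 it was called (change 0.27, limma adjusted p = 0.034). ATF3, a repressor that also regulates the stress response, was at 216 and 222 in siCt and at 212 and 170 in siAxl, and the low value came from siAxl 2 (change -0.21, limma adjusted p = 0.35). NUPR1, a small chromatin protein of the stress response, was at 123 and 149.5 in siCt and at 126 and 133 in siAxl, with overlap. Of the 7 transcription factors, 1 was called lower (14.3%, against 7.91% of all genes) and 0 higher (against 10.8%) by limma, edgeR and DESeq2, 2 had an unadjusted p under 0.05, and the median change was -0.065. Without siCt 2, siAxl 1 or siAxl 2 CEBPB was no longer called, with changes of -0.24, -0.36 and -0.28.

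Of the 6 stress effectors and feedback genes, VLDLR rose and no other passed the test. VLDLR, the very low density lipoprotein receptor, is induced by ATF4 under stress of the endoplasmic reticulum. It stood at 2558 and 2373 normalized counts in siCt and at 3542 and 3699 in siAxl, and the groups did not overlap. The mean rose to 147% of that in siCt, a change of 0.55 with an interval from 0.40 to 0.70 (limma adjusted p = 0.0033). It was the largest change among the called members other than GDF15, and in the direction opposite to GDF15.

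The inhibitors of growth and survival in this group had small positive changes that did not pass. DDIT4, an inhibitor of mTORC1, stood at 9461 and 9904 in siCt and at 11194 and 10283 in siAxl (change 0.15, limma adjusted p = 0.15). TRIB3, a pseudokinase that restrains AKT and ATF4, stood at 1288 and 1173 in siCt and at 1394 and 1345 in siAxl (change 0.16, limma adjusted p = 0.19). CHAC1, which degrades glutathione, stood at 354 and 268 in siCt and at 358 and 395 in siAxl (change 0.29, limma adjusted p = 0.22). In all of these both siAxl libraries were above both siCt libraries, for CHAC1 by a narrow margin over siCt 1. With VLDLR this held for 4 of the 6 genes (66.7%, against 30.6% of all genes). Both siAxl libraries were below in 1, PPP1R15A (16.7%, against 30.5%). CHAC1 rested on the siCt libraries, with a change of 0.49 and a call (limma adjusted p = 0.0091) without siCt 1 and a change of 0.088 without siCt 2. SESN2, a leucine sensor, overlapped between groups, with 515 and 586 in siCt and 560 and 612 in siAxl. PPP1R15A, also called GADD34, brings a phosphatase to eIF2 and so ends the response. It went the other way, with 6353 and 5757 in siCt and 5443 and 5508 in siAxl (change -0.14, limma adjusted p = 0.16). The median change of the 6 genes was 0.15. 1 was called higher (16.7%, against 10.8% of all genes) and 0 lower (against 7.91%) by limma, edgeR and DESeq2, and the 2 with an unadjusted p under 0.05, DDIT4 and VLDLR, were both higher.

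Among the amino acid synthesis genes both of the proline branch rose, and none of the serine branch passed the test. PYCR1, the last enzyme of proline synthesis in mitochondria, stood at 2670 and 2608 normalized counts in siCt and at 3059 and 3108 in siAxl. ALDH18A1, the first enzyme of the same route, stood at 4574 and 4700 in siCt and at 5265 and 5397 in siAxl. Neither gene overlapped between groups, and the siAxl means were 117% and 115% of those in siCt. The changes were 0.22 for PYCR1 (limma adjusted p = 0.033) and 0.20 for ALDH18A1 (limma adjusted p = 0.042, DESeq2 adjusted p = 0.055). Leaving out siCt 2, siAxl 1 or siAxl 2 ended the call of both, and leaving out siCt 1 that of ALDH18A1, with changes between 0.18 and 0.24 throughout.

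PSAT1, the transaminase of serine synthesis, stood at 1711 and 1724 in siCt and at 1454 and 1507 in siAxl, a change of -0.21 with no overlap that came just short of the threshold (limma adjusted p = 0.053). PSPH, which makes serine in the last step, overlapped between groups, with 1140 and 1188 in siCt and 1110 and 1187 in siAxl. The pseudogene PSPHP1, a near-identical copy, had 29.3 to 67.8 normalized counts. PHGDH, the first enzyme of the serine route, had few reads, at 37.4 and 31.4 normalized counts in siCt and 33.02 and 28.5 in siAxl. Per kilobase of annotated exon its mean level was 3.54 normalized counts, against 731 for PSAT1 and 419 for PSPH. Only 29 to 39 reads stood behind each PHGDH value, and its interval ran from -0.72 to 0.41. ASNS, asparagine synthetase and the classic reporter of amino acid shortage, stood at 983 and 944 in siCt and at 1045 and 859 in siAxl, the siAxl libraries lying on both sides of the siCt ones (change -0.024, interval -0.27 to 0.22). Of the 6 genes limma called 2 higher (33.3%, against 10.8% of all genes) and 0 lower (against 7.91%). edgeR also called 0 lower, as did DESeq2, and 3 had an unadjusted p under 0.05, PSAT1 being the lower of these. The median was -0.022.

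The cytosolic aminoacyl-tRNA synthetases, which load amino acids onto tRNAs, lay mostly on the lower side by small amounts. IARS, for isoleucine, stood at 16842 and 17790 normalized counts in siCt and at 13485 and 14167 in siAxl. NARS, for asparagine, stood at 9585 and 10037 in siCt and at 8133 and 8154 in siAxl. YARS, for tyrosine, stood at 6542 and 6723 in siCt and at 5337 and 5735 in siAxl. In these 3 genes each siAxl library was below each siCt library, and 79.8%, 83.0% and 83.5% of the siCt mean was left. The changes were -0.32 for IARS (limma adjusted p = 0.013), -0.27 for NARS (limma adjusted p = 0.018) and -0.26 for YARS (limma adjusted p = 0.025). S100PBP shares exonic bases with YARS on the opposite strand, had 34.6% of its reads and changed by -0.23 (limma adjusted p = 0.063). Without siAxl 1 none of the 3 was called. Without siCt 2 NARS and YARS were lost, and without siAxl 2 NARS, with changes of -0.21 to -0.36 across the 3 genes.

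The other 9 synthetase members passed in neither direction. AARS, for alanine, stood at 4883 and 4948 in siCt and at 4249 and 4500 in siAxl, and came nearest to the threshold (change -0.17, limma adjusted p = 0.081). LARS, for leucine, stood at 10132 and 10437 in siCt and at 9265 and 9488 in siAxl. TARS, for threonine and the most abundant of the 12, stood at 18282 and 18703 in siCt and at 16827 and 17213 in siAxl. In these 3 the groups also did not overlap, with changes of -0.13 for LARS and -0.12 for TARS. SARS, for serine, and GARS, for glycine, changed by -0.093 and -0.035, also with no overlap of the groups. MARS, for methionine, changed by -0.064 with no overlap of the groups, and DDIT3, its neighbour on the opposite strand, had 11.8% of its reads. WARS, for tryptophan, stood at 5195 and 5143 in siCt and at 5080 and 5206 in siAxl. CARS, for cysteine, stood at 4433 and 4413 in siCt and at 4492 and 4447 in siAxl. EPRS, for glutamate and proline, stood at 10009 and 10831 in siCt and at 10296 and 10951 in siAxl. The values of these 3 were near equal in both groups, and the sign of each turned with the scaling or the libraries. Among the 12 members both siAxl libraries were below both siCt libraries in 9 (75.0%, against 30.5% of all genes). They were above in 1, CARS (8.33%, against 30.6%). Of the 12 members 3 were called lower (25.0%, against 7.91% of all genes tested) and 0 higher (against 10.8%) by limma, edgeR and DESeq2. All 5 with an unadjusted p under 0.05 were lower, and the median was -0.11.

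Small negative changes were also measured in synthetases that are not members. Of 8 other cytosolic synthetases 2 were called lower (25.0%, against 7.91% of all genes) and 0 higher (against 10.8%) by limma, edgeR and DESeq2. Those called were FARSB (-0.36, limma adjusted p = 0.0079) and RARS (-0.21, limma adjusted p = 0.035). In this list 3 had an unadjusted p under 0.05, all lower, and the median was -0.090. FARSB, a subunit of the phenylalanine enzyme, stood at 2612 and 2634 in siCt and at 2057 and 2019 in siAxl. Of 17 mitochondrial synthetases 5 were called lower (29.4%, against 7.91% of all genes) and 0 higher (against 10.8%) by limma (DESeq2 4 lower and 0 higher, edgeR 0 higher, 7 at an unadjusted p under 0.05), with a median of -0.12. Among those 7, RARS2 was higher (change 0.22, limma adjusted p = 0.080) and the others were lower. TARS2 (-0.36), LARS2 (-0.31) and MARS2 (-0.48) had the smallest adjusted p in this list. Unlike for the members, whether the calls of these other synthetases hold with a library left out was not examined. The windows of IARS and NARS, both called lower, hold the letters TGATGNAA. Whether the letters bear on the changes was not tested. Over all members with the letters, 9 were tested, and 6 of these are cytosolic synthetases. Limma, edgeR and DESeq2 each called 2 lower, IARS and NARS (22.2%, against 7.91% of all genes by limma), and 0 higher (against 10.8%). The median was -0.12, against -0.0022 over all genes.

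**Figure D3:**
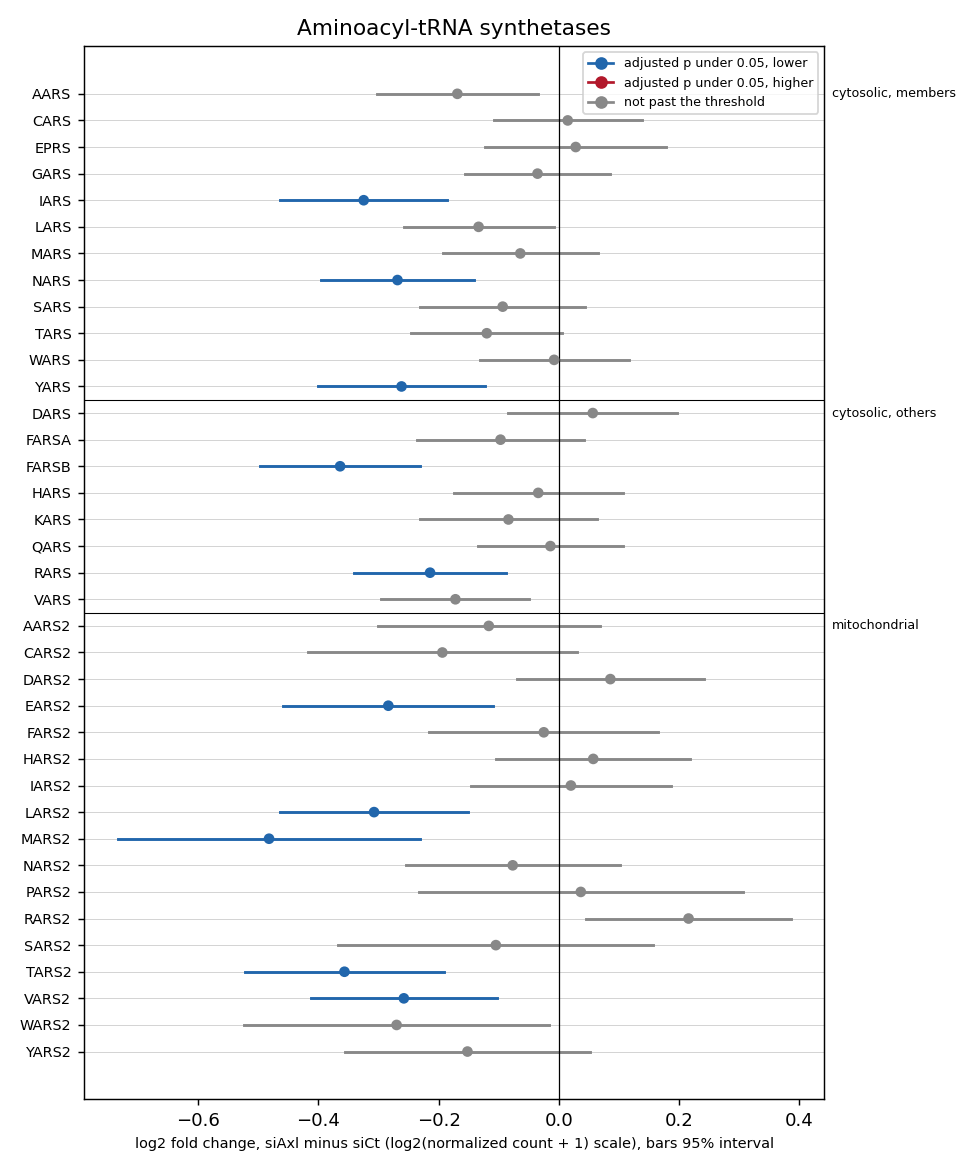
Log2 fold change, siAxl minus siCt, with 95% intervals from limma for 12 cytosolic synthetase members, 8 other cytosolic and 17 mitochondrial synthetases (blue, called lower; grey, not past an adjusted p of 0.05). All changes lie between -0.48 (MARS2) and 0.22 (RARS2), with those called lower spread over all 3 groups and 0 called higher.

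Upstream of ATF4 the messages of the kinases did not move together. EIF2AK3, which encodes PERK, stood at 1020 and 911 normalized counts in siCt and at 1186 and 1226 in siAxl, a change of 0.32 (limma adjusted p = 0.033). EIF2AK4, which encodes GCN2, changed by 0.22 (limma adjusted p = 0.047), and EIF2AK1, which encodes HRI, by -0.19 (limma adjusted p = 0.047). EIF2AK2, which encodes PKR, changed by -0.19 without passing (limma adjusted p = 0.15). PPP1R15B, the constant partner of the eIF2 phosphatase, fell by 0.35 on the log2 scale (limma adjusted p = 0.017), from 5380 and 5927 in siCt to 4280 and 4592 in siAxl. EIF2B3 and EIF2S1, subunits of eIF2B and of eIF2, changed by -0.32 and -0.23. Of 15 upstream genes limma called 5 lower (33.3%, against 7.91% of all genes) and 2 higher (13.3%, against 10.8%), DESeq2 called 3 lower and 2 higher, and the median was -0.13. The calls of the kinases rested on particular libraries. Of the 4 fits with a library left out, EIF2AK1 was called in none, EIF2AK3 in that without siCt 1 and EIF2AK4 in that without siCt 2. EIF2AK2, not called in the reported fit, was called lower in that without siCt 1. EIF2AK1 was also not called by DESeq2 (adjusted p = 0.061), nor EIF2AK4 when scaled by library size alone.

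Amino acid import showed 3 called genes, all lower. SLC3A2 and SLC7A5, which together form a carrier of large neutral amino acids, changed by -0.31 (limma adjusted p = 0.022) and -0.25 (limma adjusted p = 0.041). SLC3A2 stood at 5382 and 5671 in siCt and at 4267 and 4679 in siAxl, and SLC7A5 at 9318 and 10125 in siCt and 7898 and 8466 in siAxl. The glutamine carrier SLC1A5 changed by -0.24 (limma adjusted p = 0.023). SLC7A11, the cystine carrier that is a standard ATF4 target, was at 2716 and 2702 in siCt and at 2624 and 2831 in siAxl, with overlap. Of 9 carriers 3 were called lower (33.3%, against 7.91% of all genes) and 0 higher (against 10.8%) by limma, edgeR and DESeq2. The median was -0.075, and 4 had an unadjusted p under 0.05. These were the 3 called genes and SLC38A2, which was higher (change 0.17, limma adjusted p = 0.12).

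Other targets of ATF4 split in both directions. MTHFD2, a mitochondrial enzyme of folate metabolism, stood at 1720 and 1744 in siCt and at 1288 and 1374 in siAxl, a change of -0.38 (limma adjusted p = 0.011). TNFRSF10B, a death receptor for TRAIL, changed by -0.21 (limma adjusted p = 0.032). KLHL24, a ubiquitin ligase adaptor, stood at 2367 and 2087 in siCt and at 3525 and 3607 in siAxl, a change of 0.68 (limma adjusted p = 0.0027). GPT2, a mitochondrial alanine transaminase, and HERPUD1, a component of protein quality control in the endoplasmic reticulum, changed by 0.41 and 0.31 (limma adjusted p = 0.011 and 0.019). Of 17 such targets limma called 2 lower (11.8%, against 7.91% of all genes) and 4 higher (23.5%, against 10.8%), DESeq2 called 2 lower and 3 higher, and the median was 0.0039. Taken over the 41 upstream genes, carriers and other targets, limma called 10 lower (24.4%, against 7.91% of all genes) and 6 higher (14.6%, against 10.8%), and DESeq2 called 8 lower and 5 higher, with a median of -0.060 against -0.0022 over all genes. Without siAxl 1 limma called 0 of the 41 lower and 3 higher, with 11 and 6 at an unadjusted p under 0.05. Without siCt 2 it called 5 lower and 4 higher, without siAxl 2 it called 4 lower and 2 higher, and without siCt 1 it called 9 lower and 5 higher, beside the calls over all genes given for these fits above.

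**Figure D4:**
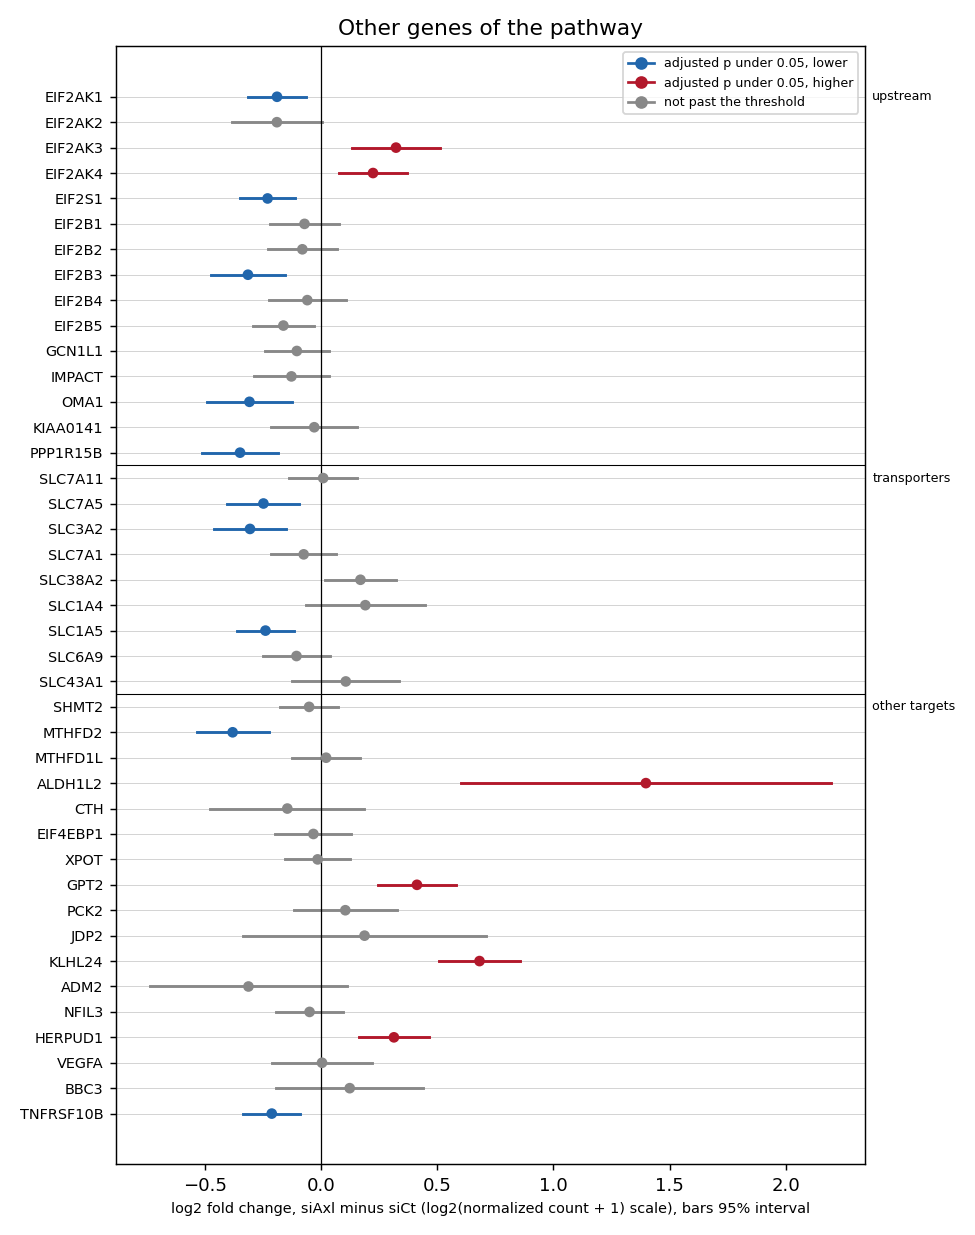
Log2 fold change, siAxl minus siCt, with 95% intervals from limma for 41 pathway genes that are not members, grouped as upstream kinases and regulators, carriers and other targets (blue, called lower; red, called higher; grey, not past an adjusted p of 0.05). Points called lower and points called higher both occur, and the widest interval is that of ALDH1L2, a gene with 7 to 29 reads a library.

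None of the other regulators of GDF15 that were examined passed the test as lower. KLF4 and TFE3, transcription factors linked to GDF15, were called higher by 0.34 (limma adjusted p = 0.012) and 0.24 (limma adjusted p = 0.033). EGR1, NFKB1, RELA, SP1, HIF1A and TFEB passed in neither direction. Of the 8 tested, 2 were called higher (25.0%, against 10.8% of all genes) and 0 lower (against 7.91%) by limma, edgeR and DESeq2, 3 had an unadjusted p under 0.05 (KLF4, TFE3 and TFEB, all higher) and the median was 0.15. The receptor genes were not tested, since RET had 0 reads in all libraries and GFRAL 3 reads in siCt 1 alone.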

How the data were processed

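RNA-seq of MDA-MB-231 cells (2 siCt and 2 siAxl libraries, grouped by the labels' treatment) was used. The deposited values are normalized counts, a signal per gene that the authors made by dividing HTSeq counts by DESeq2 size factors. The labels' processing notes name CASAVA 1.8, TopHat2 2.0.10, HTSeq 0.5.3, DESeq2 1.4.5 and GRCh37. The annotation and strand setting are not given in the sources used here. The table's own fold changes, standard errors, test statistics and p-values were not used. All values (100% within 0.01) were whole multiples of the worth of 1 read, which gave back the reads.

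Genes that edgeR's expression filter kept on those reads (16064, with 47613 left out) were tested with limma 3.58.1 (R 4.3.3, intensity trend) on log2(normalized count + 1), siAxl against siCt, with Benjamini-Hochberg adjustment over all of them and a threshold of 0.05. The limma test was run on simulated counts whose changes were larger than any measured in the members other than GDF15. That check does not cover changes of their size, and it held no effect of the replicate number. The study compared the conditions with DESeq2. Here DESeq2 1.42.0 and edgeR 4.0.16 on the recovered reads were alternatives, with other pseudocounts (0.5, 8), scalings, filters, a threshold of 0.01, a replicate block and each library left out. Depth was 39574387 to 44585773 reads a library, and 3 reads equal 2.88 to 3.25 normalized counts, which covers counting error only. The libraries of a group differed by more than sampling noise (chi-square per gene 21.6 in siCt and 19.6 in siAxl).

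The members and lists were chosen with earlier results of these data known. The text names all 34 members, AXL, up to 3 genes per direction with the smallest adjusted p in each other list, and regulators and markers by value. SLC7A11, SLC38A2, RARS2 and the overlapping neighbours NUP62, MBD6 and S100PBP were named after their values were seen. Overlaps and exon lengths came from GENCODE 29 (GRCh38) by gene ID, and promoters from RefSeq (GRCh38.p14). Some regulators of GDF15 and their targets are not reported here.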

Additional observations from a re-analysis of the deposited data

How the results depend on the processing

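GDF15 kept its direction and call in all 15 alternatives, with changes of -2.51 to -2.09 when a library was left out and -2.33 to -2.29 otherwise. Of the other members' values under the alternatives, 414 kept direction and call, 29 lost the call, 16 gained it and 19 changed sign. Those that changed sign were close to 0: ATF5 was 0.0079 under TMM scaling and 0.0057 in edgeR with TMM, WARS 0.0017 and 0.0016 in the same pair, CARS -0.0028 under upper quartile scaling and -0.014 by library size alone, and EPRS -0.00085 by library size alone. When a library was left out, ATF5 ranged from -0.096 to 0.093, WARS from -0.025 to 0.010, EPRS from -0.029 to 0.085, SESN2 from -0.0012 to 0.19, ASNS from -0.17 to 0.12, NUPR1 from -0.21 to 0.076, PSPH from -0.068 to 0.029 and DDIT3 from -0.068 to 0.041. Members called lower ranged from 0 to 4 and higher from 1 to 4, other pathway genes lower from 0 to 9 and higher from 2 to 5, and the members' median from -0.044 to -0.031. In these fits the lone library is assumed to vary like the other group.

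With every gene with at least 1 read tested (27108 genes, 1097 called), 0 members were called lower and 1 higher, and 1 other pathway gene lower and 2 higher. At an adjusted p under 0.01 (859 genes called), 0 members were lower and 1 higher, and 0 other pathway genes lower and 1 higher. By library size alone the members' median was -0.059, beside a median of -0.031 over all genes, and the calls over all genes split into 1536 higher and 1745 lower, against 1735 and 1271 in the reported fit. Upper quartile scaling gave 1611 and 1617. Under both scalings PSAT1 and AARS joined the members called lower. A fit with the replicate number as a replicate block called 10 members lower and 7 higher, with all 7 of the reported calls kept, and 7310 of all genes against 3006. The labels do not say what a number shares, and the deviations of same-numbered libraries correlated at 0.27 across genes. With 2 such pairs the numbers were not treated as pairing. The alternative of summing the rows of a symbol changed nothing, since no member had several rows. With 2 libraries a group the intervals of the other members reached from -0.72 to 1.07, and changes within the interval of each gene were not resolved.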
